A study of Mus musculus with 6 samples.

Results

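Integrins and tetraspanins, the families of membrane proteins through which a macrophage holds on to matrix and to other cells, were followed as 51 of the 55487 genes in the table. They were chosen by symbol alone: 18 integrin alpha chains, 7 integrin beta chains (Itgb3 was left out of the set) and 26 tetraspanins, of which 6 go by CD names (Cd9, Cd37, Cd53, Cd81, Cd82 and Cd151). The macrophages were grown from bone marrow of female BALB/c mice, wild type and aged 6 to 12 weeks, and their poly(A) RNA was sequenced. All cells were grown for 8 days with 20% conditioned medium of L929 fibroblasts and then received IL-4 and IL-13, 10 ng/mL each, for 24 hours, which is the M2 polarization named in the labels. The treated group (NP) then had nanoparticles at 200 µg/mL for 24 hours and the vehicle group (PBS) had PBS, with 3 libraries per group. The particles are poly(lactide-co-glycolide) according to the series title, and the treatment label of the NP libraries, PEMA, is explained nowhere in the labels. The labels do not say whether the libraries of a group came from separate mice or cultures, so the p-values measure the spread between these libraries, which may be technical.

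An integrin is a pair of 1 alpha and 1 beta chain that spans the membrane, binds matrix proteins or counter-receptors outside the cell and links to the actin cytoskeleton inside it through talin and kindlin. In myeloid cells the beta 2 chain pairs with alpha L, alpha M, alpha X or alpha D to form the leukocyte integrins, while beta 1 pairs with many alpha chains to form receptors for fibronectin, laminin and collagen. Tetraspanins cross the membrane several times, bind one another and integrins side by side, and a subgroup called TspanC8 carries the protease ADAM10 to the cell surface. CD9 and CD81 are known to hold back the fusion of macrophages into giant cells.

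Library totals ran from 41974957 to 69450411 counts, each NP library deeper than each PBS library, so that 3 counts equalled 0.0441 to 0.0703 CPM (counts relative to library size, with trimmed-mean factors between libraries). Limits from counts of 0 cover counting error only, while intervals of a log2 fold change come from the spread between libraries. On the first principal component NP 2 lay at 10.9, nearer to the PBS libraries (-18.4 to -15.9) than NP 1 and NP 3 (22.5 and 17.9). Sensory receptor genes (symbols starting with Olfr or Vmn, olfactory and vomeronasal) summed to 138 CPM in PBS 2, to 153 CPM in PBS 3 and to 9.70 to 12.5 CPM elsewhere. Of 8 macrophage markers 6 were lower in NP and 1 higher, with a summed level of 11549 to 11815 CPM in PBS and 9272 to 10238 CPM in NP. Markers of T and NK cells and of mast cells and basophils summed to at most 1.57 CPM in any library, with Cd8a, Nkg7, Ncr1, Cpa3, Mcpt8, Fcer1a, Ms4a2 and Prss34 at 0 counts in all 6. The T cell gene Cd3e was at 0.0176, 1.29 and 0.662 CPM in PBS 1 to 3 and at 0 in NP, and Pax5 of the B cell list at 0.0176, 0.586 and 0.448 CPM in PBS and at most 0.0496 CPM in NP, so both were high in PBS 2 and PBS 3. Among the B cell markers Ighm fell (-1.64, limma adjusted p = 0.0125), with a list sum of 1.81 to 2.92 CPM in PBS and 0.353 to 1.39 CPM in NP. Among the epithelial ones Cdh1 fell (-0.56, limma adjusted p = 4.10e-04), with a list sum of 48.1 to 52.4 CPM in PBS and 29.5 to 37.3 CPM in NP. That sum was nearly all Cdh1 (48.0 to 52.2 CPM in PBS), with Krt8 and Krt18 at 0 counts and Epcam at most 0.188 CPM.

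After a filter on low counts 38 of the 51 members were tested, 19 integrins and 19 tetraspanins. A gene was called when limma voom, fitted over 14478 genes, gave a Benjamini-Hochberg adjusted p under 0.05. In NP, 8 members rose and 13 fell, or 21.1% and 34.2% of those tested, against 19.8% and 21.4% of all genes tested. Of the integrins 3 rose and 7 fell (15.8% and 36.8%), and of the tetraspanins 5 rose and 6 fell (26.3% and 31.6%). The shares that rose lie near those of all genes, and whether the shares that fell differ from those of other genes was not tested. The libraries of the groups did not overlap in 11 members higher in NP (28.9%) and 16 lower (42.1%), against 26.5% and 26.8% of all genes. Most changes were small: Itgae and Tspan7 rose and Itga1 fell by at least 2-fold, and each of the other 18 called members changed by less. Itgae passed the filter on low counts only through its NP libraries. So did Tspan10, without overlap but not called, while Tspan8, also without overlap and not called, passed only through PBS. The median log2 fold change (NP minus PBS) was -0.08 over the 38 members and -0.00 over all genes. In 14 of the 21 called members NP 2 was the NP library nearest to the PBS mean.

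**Figure D1:**
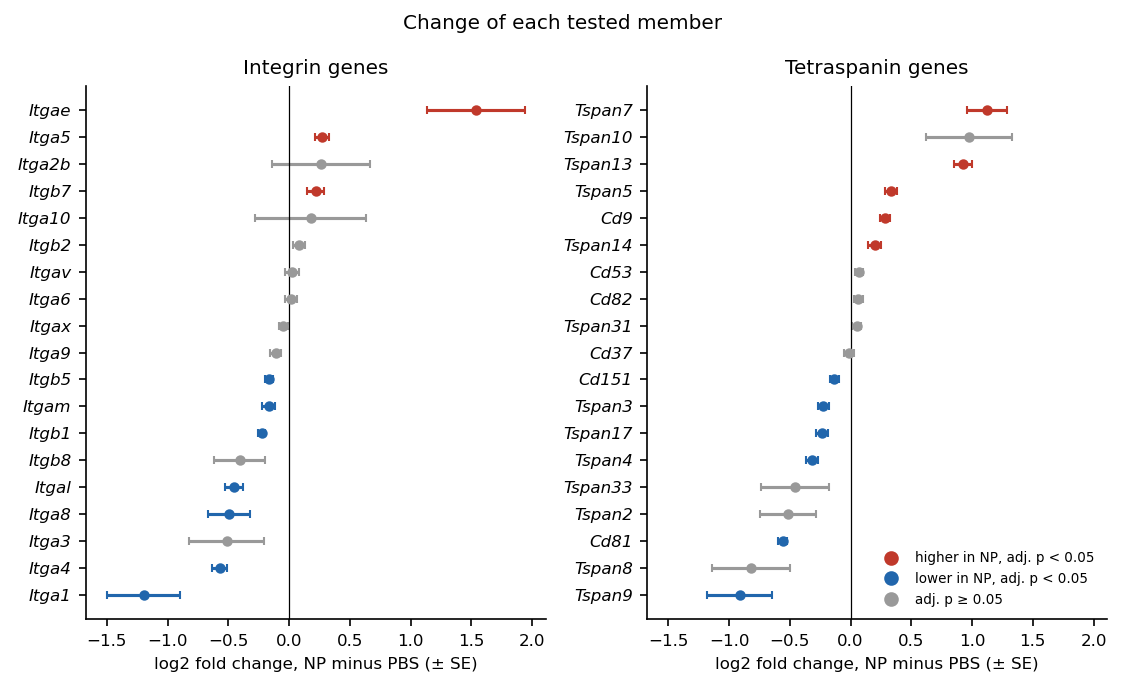
Log2 fold change of NP against PBS (x axis, points with SE bars from limma voom, 3 libraries per group) for the 19 tested integrin genes (left) and 19 tested tetraspanin genes (right), red for higher, blue for lower and grey for adjusted p of at least 0.05. Narrow bars mark the abundant genes, such as Itga4 at -0.57, Cd81 at -0.56 and Cd9 at 0.28, while the scarcer Tspan13 lies at 0.93.

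The starts of 4 members are shown because the results turn on them: Cd9 and Itga5 are the most abundant called members that rose, and Itga4 and Cd81 are those with the largest falls among members with a mean of at least 5 CPM. Cd9 (ENSMUSG00000030342) lies on chromosome 6 at 125460266 to 125494791 and Itga5 (ENSMUSG00000000555) on chromosome 15 at 103344286 to 103366763, both on the minus strand. Cd81 (ENSMUSG00000037706) lies on chromosome 7 at 143052739 to 143067934 and Itga4 (ENSMUSG00000027009) on chromosome 2 at 79255426 to 79333123, both on the plus strand (GRCm38, GENCODE M21). Each sequence is the RefSeq promoter window on GRCm38.p6, 250 bases before to 50 bases after the annotated start, 5′ to 3′ on the strand of the gene. Capitals mark matches, on either strand, to GGGCGG (the SP1 box), GAGGAA (a core of PU.1 sites), TGANTCA (AP-1) or CACGTG (an E-box).
Cd9: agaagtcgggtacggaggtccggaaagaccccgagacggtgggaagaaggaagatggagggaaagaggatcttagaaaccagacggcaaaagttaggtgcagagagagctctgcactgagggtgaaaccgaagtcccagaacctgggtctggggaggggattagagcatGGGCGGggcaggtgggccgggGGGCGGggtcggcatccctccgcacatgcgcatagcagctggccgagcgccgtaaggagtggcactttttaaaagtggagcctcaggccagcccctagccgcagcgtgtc
Itga5: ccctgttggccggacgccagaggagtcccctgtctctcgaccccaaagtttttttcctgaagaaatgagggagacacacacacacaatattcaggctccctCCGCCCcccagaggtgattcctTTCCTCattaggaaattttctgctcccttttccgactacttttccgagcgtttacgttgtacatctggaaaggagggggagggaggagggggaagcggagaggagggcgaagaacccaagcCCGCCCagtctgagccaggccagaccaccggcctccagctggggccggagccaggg
Cd81: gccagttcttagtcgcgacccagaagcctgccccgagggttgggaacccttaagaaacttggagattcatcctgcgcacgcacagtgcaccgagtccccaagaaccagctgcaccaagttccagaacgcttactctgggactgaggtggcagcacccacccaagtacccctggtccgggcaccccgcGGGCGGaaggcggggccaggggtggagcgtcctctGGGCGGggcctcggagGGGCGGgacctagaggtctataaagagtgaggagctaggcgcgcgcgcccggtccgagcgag
Itga4: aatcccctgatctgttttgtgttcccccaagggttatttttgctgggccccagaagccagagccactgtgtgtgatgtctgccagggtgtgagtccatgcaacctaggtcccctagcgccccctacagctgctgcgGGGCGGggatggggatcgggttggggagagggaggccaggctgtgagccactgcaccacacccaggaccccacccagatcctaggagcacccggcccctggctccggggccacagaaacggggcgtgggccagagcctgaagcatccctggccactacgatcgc
The windows of the 2 members that rose and the 2 that fell all held the SP1 box, 2 times each in Cd9 and Itga5, 3 times in Cd81 and once in Itga4. The window of Itga5 also held 1 match to GAGGAA, which overlapped no other match, and none of the 4 held TGANTCA or CACGTG. Of 32851 windows of this length the SP1 box was in 35.7%, GAGGAA in 28.3%, TGANTCA in 7.81% and CACGTG in 7.15%. Windows were found for 43 of the 51 members, 55 windows in all, of which the same letters were in 45.5%, 32.7%, 9.09% and 3.64%. The median share of G and C was 58% in the member windows and 52.7% in all windows. Its part in the share with the SP1 box, which is all G and C, was not tested. The SP1 box was in 6 of 8 windows of members that rose and 10 of 17 windows of members that fell, and GAGGAA in 4 and 3 of them. These matches are letters in a window, and no binding was measured.

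Among the integrin alpha chains that bind the leukocyte beta 2 chain, 2 of the abundant members fell and 1 was not called. Itgam, the alpha M chain of complement receptor 3 (CD11b), was at 664, 624 and 612 CPM in PBS 1 to 3 and at 526, 612 and 553 CPM in NP 1 to 3. NP 2 lay just below PBS 3, and the call (log2 fold change -0.17, SE 0.05, limma adjusted p = 0.0329) was lost in 9 of 16 alternative fits, among them each of those without PBS 1, PBS 2, PBS 3, NP 1 or NP 3 (adjusted p = 0.052 to 0.178). Itgam shares 3450 exonic bases with Gm49368 on the same strand, a gene given 4462 counts against 202054 for Itgam, so the split between them rests on the authors' read assignment. Itgal, the alpha L chain of LFA-1, which binds ICAM molecules, was at 26.4, 25.2 and 21.9 CPM in PBS and at 19.1, 17.1 and 17.3 CPM in NP. All 3 NP libraries were below all PBS libraries (log2 fold change -0.45, SE 0.08, limma adjusted p = 0.00124), and the call was kept in all 16 alternatives. Itgax, the alpha X chain (CD11c), stood at 903, 833 and 884 CPM in PBS and at 828, 851 and 850 CPM in NP. Its groups overlapped, and its log2 fold change of -0.05 had a 95% interval from -0.13 to 0.03 (limma adjusted p = 0.311). Itgad, the alpha D chain, was found with 32 counts over all libraries and was not tested.

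The shared partner, Itgb2 or CD18, was at 1328, 1247 and 1229 CPM in PBS and at 1271, 1434 and 1329 CPM in NP. These groups overlapped, with the highest value in NP 2 (log2 fold change 0.08, SE 0.05, limma adjusted p = 0.199). Of the 8 macrophage markers 6 fell in the same libraries, the most in Csf1r and Adgre1 (-0.59 and -0.65). Cd68 rose (0.14, limma adjusted p = 0.0176) and Fcgr1 was not called (0.09, limma adjusted p = 0.624). The part of these markers in the leukocyte integrin values was not tested. In bulk RNA, fewer cells that express a gene and less of its RNA per cell cannot be told apart.

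Itgae, the alpha E chain (CD103) that pairs with beta 7 on intraepithelial T cells and some dendritic cells, was rare. It had 9, 3 and 13 counts in PBS 1 to 3 and 36, 21 and 29 counts in NP 1 to 3. At 0.158 and 0.0703 CPM, PBS 1 and PBS 2 were under the filter level of 0.171 CPM. Itgae was thus tested only because its NP libraries passed, and its call and lack of overlap are not independent of that filter. The groups did not overlap (log2 fold change 1.54, SE 0.40, limma adjusted p = 0.013), but the call was lost without NP 1 or NP 3 (adjusted p = 0.126 and 0.12), when PBS 1 alone stood for the vehicle (0.0936) and when the sensory receptor sum entered the model (0.135). Its partner Itgb7 was at 16.1, 18.8 and 18.6 CPM in PBS and at 21.7, 19.2 and 20.9 CPM in NP, a rise of 0.22 (SE 0.07, limma adjusted p = 0.0336) in which NP 2 lay close to PBS 2. The Itgb7 call was lost in 6 of 16 alternatives, among them those that left out PBS 1, NP 1 or NP 3 (adjusted p = 0.0976 to 0.12), used library totals alone (0.0637) or had no filter on low counts (0.0636). Beside these, 1 of 6 dendritic cell markers (Ccr7, of 3 tested) rose and 0 fell. Ccr7 was at 0, 0 and 0.0195 CPM in PBS and at 0.397, 0.414 and 0.546 CPM in NP (log2 fold change 4.98, limma adjusted p = 5.33e-05). Ccr7 too passed the filter only through NP. The 6 markers summed to 1.65 to 3.99 CPM in PBS and 2.65 to 3.16 CPM in NP, mostly Zbtb46. Their part in the rises of Itgae and Itgb7 was not tested. Per-library counts of Itgae are given because of its fold change, a choice made after its values were seen.

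Itga4 and Itga5, 2 alpha chains of fibronectin receptors, went in opposite directions, and Itgav, given below, was not called. Itga4, whose product with beta 1 binds VCAM-1 and an alternative stretch of fibronectin, was at 154, 146 and 147 CPM in PBS and at 93.6, 112 and 95.6 CPM in NP. Every NP library was far below the lowest PBS library, with NP 2 the highest of the 3 (log2 fold change -0.57, SE 0.06, limma adjusted p = 1.21e-04), and the call was kept in all 16 alternatives. Itga5, the alpha chain of the classical fibronectin receptor, was at 225, 218 and 221 CPM in PBS and at 292, 245 and 264 CPM in NP. All NP libraries were higher, again with NP 2 nearest to PBS (0.27, SE 0.06, limma adjusted p = 0.00404), and the call was lost in 2 alternatives, when PBS 1 alone stood for the vehicle (adjusted p = 0.107) and when the sensory receptor sum entered the model (0.0789). Divided by exon length, the level of Itga5 was 4.21 ± 0.06 times that of Itga4 in PBS and 7.63 ± 1.33 times in NP (SD, n = 3 each), without overlap (exact permutation test, two-sided, p = 0.1, the smallest that 3 against 3 libraries allow). The ratio was 8.84 in NP 1, 6.21 in NP 2 and 7.83 in NP 3. This was 1 of 4 ratios computed, all chosen after values were seen, and its adjusted p was 0.133. With all NP libraries higher for Itga5 and lower for Itga4, the ratio could not overlap. Its p therefore adds nothing to the calls of these genes. Of the other ratios, Itgax over Itgam was 1.44 ± 0.06 in PBS and 1.57 ± 0.10 in NP, with overlapping libraries (exact permutation p = 0.2, two-sided).

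Other alpha chains were steady or scarce. Itgav, the alpha V chain of vitronectin receptors and of activators of latent TGF-beta, was at 99.9, 94.2 and 91.1 CPM in PBS and at 104, 89.3 and 97.1 CPM in NP. The groups overlapped and the log2 fold change was 0.02 (95% interval -0.10 to 0.15, limma adjusted p = 0.776). Itga6, a laminin receptor chain, had 0.02 (adjusted p = 0.831) and Itga9 had -0.11 (adjusted p = 0.0818, groups without overlap), both in limma voom. Of the collagen-binding chains, Itga1 fell by 1.20 on the log2 scale (SE 0.30, limma adjusted p = 0.0111) from 0.913, 1.62 and 1.38 CPM in PBS 1 to 3 to 0.368, 0.613 and 0.711 CPM in NP 1 to 3. PBS 1, the PBS library with few sensory receptor counts, was the lowest PBS library for Itga1. The log2 fold change was -0.77 when PBS 1 alone stood for the vehicle (adjusted p = 0.207) and -0.69 when the sensory receptor sum entered the model (0.215), and the call was also lost without NP 1 or NP 3 (0.0941 and 0.0517). Itga8 was called lower (-0.49, limma adjusted p = 0.046) and lost the call in 10 of 16 alternatives, including each that left out 1 library. Itga3, Itga10 and Itga2b, the last the alpha chain of the platelet fibrinogen receptor, had means of at most 0.507 CPM in either group and were not called. Markers of megakaryocytes and platelets summed to 14.7 to 16.1 CPM in PBS and 13.4 to 14.5 CPM in NP, mostly Pf4, with Gp1bb at 0 counts.

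Of the beta chains, Itgb1 and Itgb5 fell by small and even amounts. Itgb1, the common partner of the matrix-binding alpha chains, was at 942, 963 and 968 CPM in PBS and at 830, 819 and 805 CPM in NP. The 3 values of each group lay close together and the groups were well apart (log2 fold change -0.23, SE 0.03, limma adjusted p = 3.32e-04). Itgb5, which pairs with alpha V, was at 246, 235 and 231 CPM in PBS and at 216, 209 and 208 CPM in NP, and fell by 0.17 on the log2 scale (SE 0.03, limma adjusted p = 0.00384) with no overlap. Both calls were kept in all 16 alternatives. Divided by exon length, Itgb2 stood at 1.77 ± 0.10 times Itgb1 in PBS and 2.20 ± 0.15 times in NP (SD, n = 3 each), a difference larger than either spread (exact permutation p = 0.1, two-sided, the smallest possible, adjusted p = 0.133). Itgb8, an alpha V partner that activates TGF-beta, was under 1 CPM and was not called (-0.41, limma adjusted p = 0.151).

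**Figure D2:**
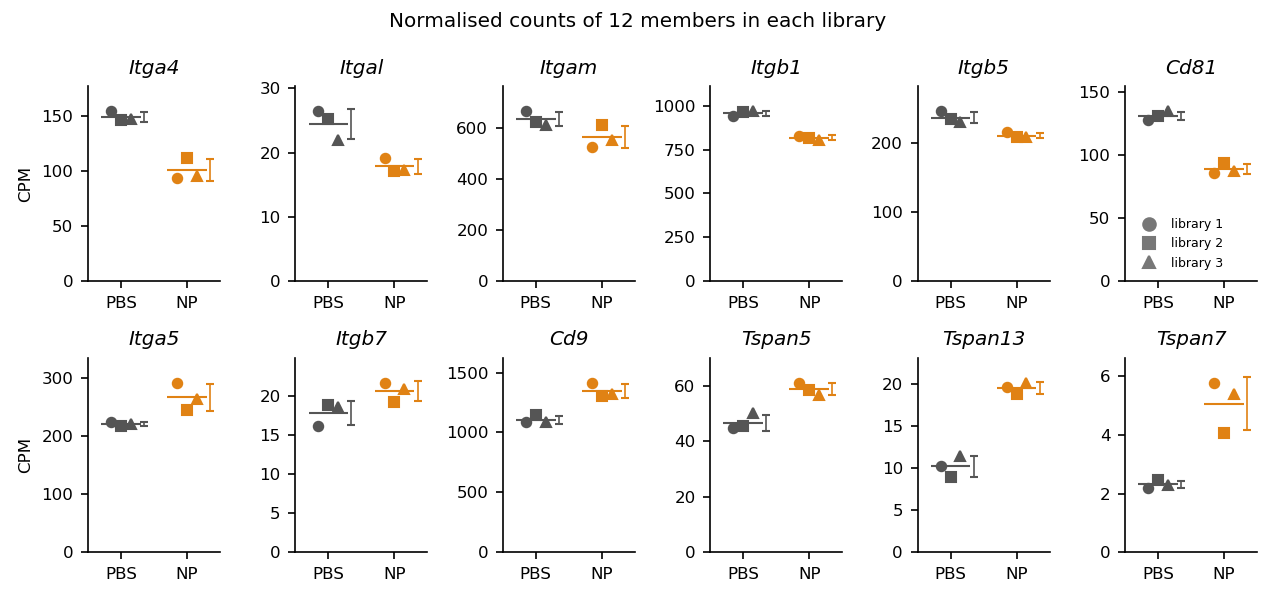
Normalised counts (CPM, y axis from 0) of 12 members in each library, circles, squares and triangles for libraries 1, 2 and 3, with the group mean as a line and the SD as a bar (n = 3). Itga4 and Cd81 drop from means of 149 and 131 CPM to 100.4 and 88.8 CPM, while Cd9 and Tspan13 go from 1105 and 10.2 CPM to 1346 and 19.5 CPM.

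Per exon length, a few members made up most of each family. Itgax and Itgam held 47.6% ± 0.90 and 33.0% ± 0.75 of the summed level of the alpha chains in PBS (SD, n = 3), and 47.9% ± 0.53 and 30.6% ± 1.8 in NP. The share of Itga5 was 11.7% ± 0.21 in PBS and 14.8% ± 1.6 in NP. Of the beta chains in the set Itgb2 held 57.4% ± 1.1 in PBS and 62.2% ± 1.7 in NP, and Itgb1 32.5% ± 1.2 and 28.3% ± 1.2. Cd9 alone held 53.1% ± 0.65 of the tetraspanin level in PBS and 57.8% ± 0.72 in NP, ahead of Cd53 with 24.0% ± 0.32 and 22.6% ± 0.31. The summed tetraspanin level was 1018 ± 20.3 CPM per kilobase in PBS and 1140 ± 35.5 in NP. Cd9 itself was at 541 ± 15.8 in PBS and 659 ± 28.4 in NP, so most of the larger total was Cd9. The summed alpha level was 382 ± 13.1 in PBS and 367 ± 6.3 in NP, and the beta level 723 ± 15.7 and 708 ± 25.2, with overlapping libraries for both families. These shares depend on the length assigned to each gene, and Cd9 held 60.8% and 65.8% when the longest transcript replaced the union of exons.

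**Figure D3:**
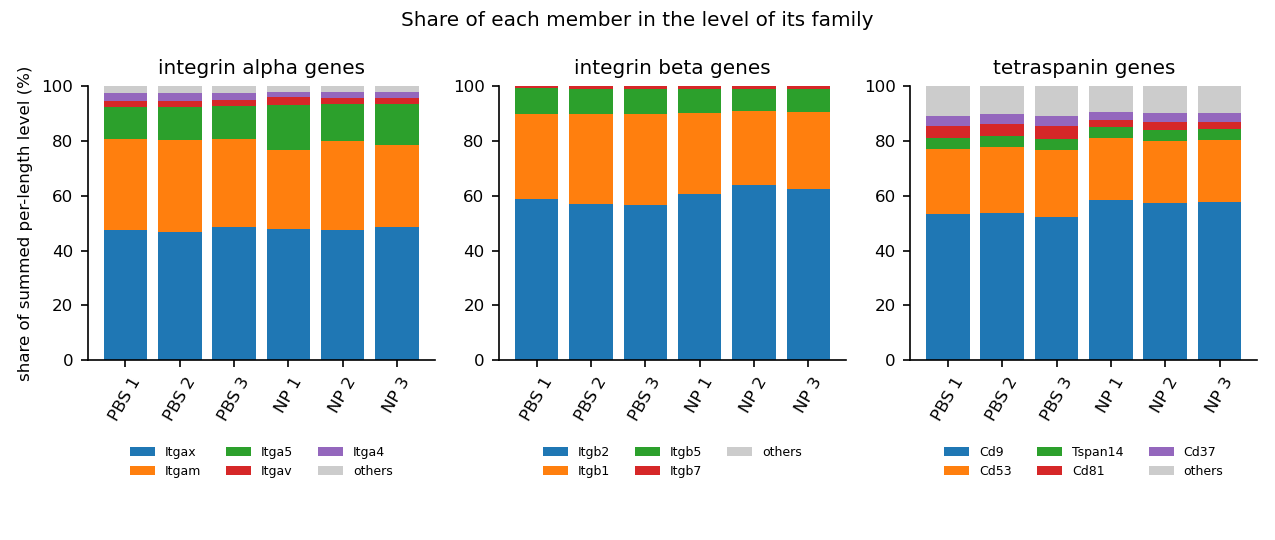
Share of each member (stacked colours, y axis in percent) in the summed per-length level of the integrin alpha, integrin beta and tetraspanin genes of the set, 1 bar per library. Cd9 fills 53.1% of the tetraspanin level in PBS and 57.8% in NP on average, and the alpha chains are led by Itgax and Itgam in every library.

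Of the tetraspanins with CD names, Cd9 rose, Cd81 and Cd151 fell and Cd37, Cd53 and Cd82 were not called. Cd9, a partner of beta 1 integrins and of the protein encoded by Ptgfrn, was at 1089, 1142 and 1085 CPM in PBS and at 1413, 1308 and 1318 CPM in NP. All NP libraries were above all PBS libraries (log2 fold change 0.28, SE 0.04, limma adjusted p = 4.57e-04). Cd81, a close relative of Cd9 that binds many of the same partners, was at 127, 130 and 134 CPM in PBS and at 85.2, 93.6 and 87.5 CPM in NP. Values within each group were close together and the groups were far apart (-0.56, SE 0.04, limma adjusted p = 1.97e-05). Both calls were kept in all 16 alternatives. Per exon length the level of Cd9 was 11.9 ± 0.50 times that of Cd81 in PBS and 21.4 ± 1.8 times in NP (SD, n = 3 each, exact permutation p = 0.1, two-sided, the smallest possible, adjusted p = 0.133). With all NP libraries above PBS for Cd9 and below for Cd81, this ratio could not overlap. Its p therefore adds nothing to the calls of these genes.

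Cd151, the tetraspanin bound most tightly to laminin-binding integrins, was at 59.0, 55.9 and 57.0 CPM in PBS and at 54.3, 51.2 and 51.3 CPM in NP. The groups were apart by a small margin (log2 fold change -0.13, SE 0.04, limma adjusted p = 0.0194), and the call was lost in 6 of 16 alternatives: when PBS 1, PBS 3, NP 2 or NP 3 was left out, when PBS 1 alone stood for the vehicle and without a filter on low counts (adjusted p = 0.0511 to 0.141). Cd53, a leukocyte tetraspanin, was at 414, 435 and 430 CPM in PBS and at 459, 447 and 440 CPM in NP, apart by a margin that did not pass (0.07, limma adjusted p = 0.103). Cd37, another leukocyte tetraspanin, was at 133, 128 and 127 CPM in PBS and at 122.6, 133 and 129 CPM in NP, and these ranges overlapped. Its log2 fold change of -0.01 had a 95% interval from -0.10 to 0.07 (limma adjusted p = 0.819). Cd82, known as a suppressor of metastasis, was at 41.6, 43.1 and 42.5 CPM in PBS and at 45.3, 43.1 and 44.4 CPM in NP. NP 2 lay barely above PBS 2, and the gene was not called (0.06, limma adjusted p = 0.181).

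The TspanC8 tetraspanins went in both directions: Tspan5 and Tspan14 rose, Tspan17 fell, Tspan10 and Tspan33 were not called and Tspan15 was not tested. Tspan5 was at 44.7, 45.5 and 50.01 CPM in PBS and at 61.0, 58.4 and 56.7 CPM in NP, without overlap (log2 fold change 0.33, SE 0.05, limma adjusted p = 6.51e-04). Tspan14, the most abundant of the subgroup per exon length, was at 106, 112 and 106 CPM in PBS and at 134, 115 and 122 CPM in NP. NP 2 lay just above PBS 2 (0.20, SE 0.05, limma adjusted p = 0.0146), and the call was lost without NP 3 (adjusted p = 0.0604), when PBS 1 alone stood for the vehicle (0.1) and when the sensory receptor sum entered the model (0.0805). Tspan17 was at 21.8, 20.7 and 21.1 CPM in PBS and at 17.3, 18.8 and 18.1 CPM in NP (-0.24, SE 0.05, limma adjusted p = 0.00407). All 3 NP libraries were lower, and the Tspan5 and Tspan17 calls were kept in all 16 alternatives. Adam10, the protease that this subgroup escorts, fell from 249 ± 10.8 to 208 ± 7.1 CPM (SD, n = 3 each, log2 fold change -0.26, limma adjusted p = 8.97e-04). Tspan33 was at 0.474, 0.305 and 0.390 CPM in PBS and at 0.279, 0.348 and 0.232 CPM in NP, with overlap (limma adjusted p = 0.222), and Tspan10 had a log2 fold change of 0.97 with 22 counts over the 3 PBS libraries and 56 over the NP libraries (limma adjusted p = 0.0523).

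Among the remaining tetraspanins the largest rises were in Tspan13 and Tspan7. Tspan13 was at 10.3, 8.96 and 11.5 CPM in PBS and at 19.6, 18.8 and 20.1 CPM in NP, a 1.90-fold rise (log2 fold change 0.93, SE 0.08, limma adjusted p = 3.65e-05). Its lowest NP library was well above its highest PBS library. Tspan7, studied in neurons and in the cytoskeleton of osteoclasts, was at 2.21, 2.46 and 2.299 CPM in PBS and at 5.78, 4.06 and 5.39 CPM in NP, a 2.18-fold rise (1.12, SE 0.16, limma adjusted p = 6.38e-04). NP 2 was again nearest to PBS, and the calls of Tspan13 and Tspan7 were kept in all 16 alternatives. Tspan7 was below 5 CPM and its library values are given for its fold change, a choice made after they were seen. Beside it, 2 of 7 osteoclast markers rose (Ctsk and Acp5, 0.68 and 0.24), 2 fell (Ocstamp and Nfatc1, -0.67 and -0.11) and Calcr was at 0 counts, with a summed level of 96.9 to 102.6 CPM in PBS and 94.0 to 104.1 CPM in NP, and their part in the rise was not tested.

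Tspan3 and Tspan4 fell by small amounts. Tspan4, found in migration trails (migrasomes) of moving cells, was at 29.6, 28.5 and 30.1 CPM in PBS and at 23.7, 24.7 and 22.5 CPM in NP (log2 fold change -0.32, SE 0.05, limma adjusted p = 6.19e-04). Tspan3 was at 39.8, 38.3 and 41.9 CPM in PBS and at 34.4, 35.2 and 33.3 CPM in NP (-0.22, SE 0.04, limma adjusted p = 0.00297). In both genes each NP library was below each PBS library, and the Tspan3 call was lost when the sensory receptor sum entered the model (adjusted p = 0.0531). Tspan4 shares 292 exonic bases with Chid1 on the opposite strand, a gene with 14770 counts over the 6 libraries against 8904, and the strand setting of the counting is not known here, so its value is uncertain. Tspan31 (0.05, limma adjusted p = 0.276) shares 641 exonic bases with Cdk4 on the opposite strand, a gene with 64444 counts against 20984, and is uncertain in the same way. Tspan9 was called lower at under 1 CPM (-0.91, limma adjusted p = 0.0214) and lost the call in 8 of the 15 alternatives that tested it, and Tspan2 and Tspan8 were not called (-0.52 and -0.82, limma adjusted p = 0.105 and 0.0678).

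The 13 members that did not pass the filter, 6 integrins and 7 tetraspanins, had 0 to 85 counts over all 6 libraries. Itgb6, a chain of epithelial integrins, had 0, 42 and 42 counts in PBS 1 to 3 and 0, 1 and 0 counts in NP 1 to 3. Nearly all of it was therefore in PBS 2 and PBS 3, and PBS 1 was like the NP libraries. Tspan15, a TspanC8 member, had 1, 28 and 11 counts in PBS 1 to 3 and 1, 2 and 0 counts in NP 1 to 3, again with most in PBS 2 and PBS 3. Those libraries had the sensory receptor sums of 138 and 153 CPM, and the part of this in the counts of Itgb6 and Tspan15 was not tested. Over the groups the Itgb6 level was 105 times as high in PBS as in NP, with an exact 95% interval for counting error from 18.4 to 4199, a ratio set by PBS 2 and PBS 3. Tspan32, a leukocyte tetraspanin, had 2, 4 and 2 counts in PBS and 0 in each NP library, too few for a comparison. Tspan1 was at 0 counts throughout, which allows up to 0.0441 to 0.0703 CPM per library, and Itga2, Itga7, Itga11, Itgb4, Tspan6, Tspan11, Tspan12 and Tspan18 had 1 to 49 counts in all. Itgb6, Tspan15 and Tspan32 were singled out after their values were seen.

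**Figure D4:**
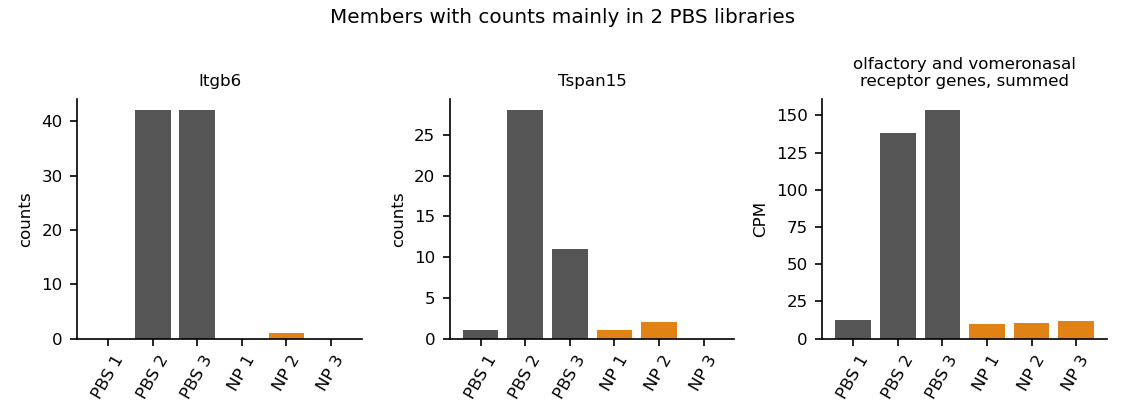
Counts of Itgb6 and Tspan15 and the summed CPM of the sensory receptor genes (y axes from 0), 1 bar per library, grey for PBS and orange for NP. All 3 are high in PBS 2 and PBS 3 and low in PBS 1 and the NP libraries.

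The genes that work with integrins were called in both directions. Of 15 tested genes of integrin activation, 3 rose and 5 fell (20% and 33.3%), against 19.8% and 21.4% of all genes tested. The median log2 fold change was -0.06, beside -0.00 for all genes tested. Integrin activation itself was not measured, and the list median does not give its direction. Fermt3, the kindlin of blood cells, fell from 262 ± 1.8 to 223 ± 5.8 CPM (-0.24, limma adjusted p = 3.18e-04), Dab2, an endocytic adaptor that binds beta chain tails, from 643 ± 18.6 to 353 ± 49.4 CPM (-0.87, limma adjusted p = 6.31e-05) and Fyb, an adaptor of the same pathway, from 134 ± 9.4 to 87.8 ± 17.1 CPM (-0.62, limma adjusted p = 0.00236). Rapgef1, an exchange factor for RAP1, rose from 150.1 ± 3.3 to 183 ± 8.2 CPM (0.28, limma adjusted p = 4.04e-04; SD, n = 3 each). In the adhesion complex list 10 of 31 rose and 10 fell (32.3% each), with a median of 0.01. Vcl, vinculin, which ties adhesions to actin, rose from 63.5 ± 2.1 to 92.4 ± 2.2 CPM (0.54), Lims2 from 11.04 ± 0.26 to 18.1 ± 0.52 CPM (0.71) and Src, a kinase, from 23.2 ± 1.5 to 32.2 ± 1.1 CPM (0.47), while Tns1, a tensin, fell from 4.25 ± 0.42 to 1.89 ± 0.07 CPM (-1.17). These 4 had limma adjusted p of at most 1.39e-04.

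Among 27 tested integrin ligands 5 rose and 11 fell (18.5% and 40.7%), with a median of -0.07. Fn1, fibronectin, fell from 521 ± 27.2 to 333 ± 39.1 CPM (SD, n = 3 each, log2 fold change -0.65, limma adjusted p = 1.61e-04) and Vcam1 from 1.146 ± 0.088 to 0.356 ± 0.064 CPM (-1.68, limma adjusted p = 2.71e-04). Both are ligands of the alpha 4 beta 1 integrin, whose alpha chain Itga4 also fell. Fibronectin also binds its classical receptor, whose alpha chain Itga5 rose (0.27, limma adjusted p = 0.00404). Spp1, osteopontin, a ligand of alpha V integrins, rose from 3770 ± 380 to 5873 ± 122 CPM (0.64, limma adjusted p = 8.51e-05), and Mfge8, which bridges dying cells to alpha V integrins, from 67.2 ± 4.4 to 129 ± 8.8 CPM (0.94, limma adjusted p = 1.17e-05), while Itgav itself was not called. Of 10 tetraspanin partners 4 rose and 3 fell (40% and 30%, median 0.15). Ptgfrn, the CD9 and CD81 partner EWI-F, went from 101.5 ± 0.31 to 128 ± 10.8 CPM (0.33, limma adjusted p = 0.00128). Mmp14, a membrane-bound metalloproteinase, had 0.80, and the sheddases Adam10 and Adam17 had -0.26 and -0.22. Of 3 tested genes of the superfamily outside the set only Cd63, the lysosomal tetraspanin, was called, at 745 ± 21.5 CPM in PBS and 1039 ± 40.5 CPM in NP (0.48, limma adjusted p = 2.95e-05). These lists are counts beside all genes tested, of which 19.8% rose and 21.4% fell, and no test of a list as a whole was made.

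**Figure D5:**
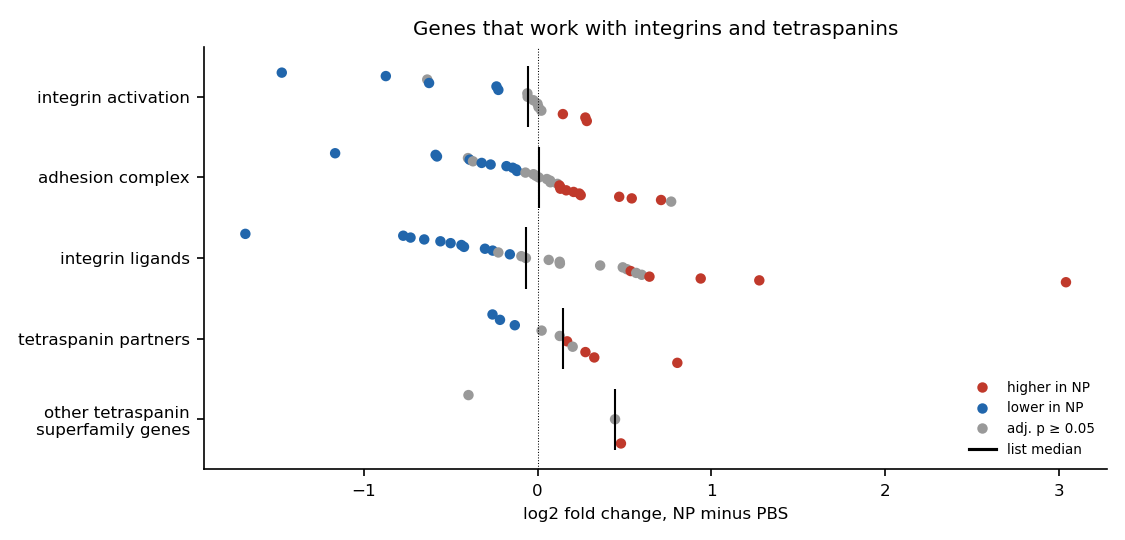
Log2 fold change of NP against PBS (x axis) of each tested gene in 5 lists (rows), red for higher and blue for lower at adjusted p under 0.05, grey otherwise, with the list median as a black line. The medians run from -0.07 in integrin ligands to 0.15 in tetraspanin partners among lists with more than 3 tested genes.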

How the data were processed

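Per the labels, poly(A) RNA was sequenced as pairs of 151 bp reads from 6 libraries in 2 groups. The deposited values are expected counts per gene in 1 table, unscaled, and every one is a whole number, so they had been rounded by the authors. RSEM 1.3.3, STAR 2.7.8a and cutadapt 2.3, with FastQC 0.11.8, MultiQC 1.7 and GRCm38, are listed per the submitters' processing notes, which give no roles. Neither the annotation release nor the strandedness is stated there, and 20 members share exonic bases with another gene in GENCODE M21, which matched all 51 members and 55227 of 55487 gene rows. Of 55491 rows, 4 reporter constructs at 0 counts were left out.

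Genes needed 0.171 CPM (10 counts at the median depth) in 3 libraries and 15 counts in total. limma 3.58.1 (R 4.3.3) fitted voom, with 0.5 added to each count, with group as its only term (4 residual degrees of freedom) and trimmed-mean factors of 0.979 to 1.02, written out in R. Since quoted text with spaces keeps the columns from being machine-checked as counts, the unit rests on the labels and values and no count-model test was used. The fit was tested on simulated data. Per-length levels divide CPM by the union of exons in kilobases. Library pairs within groups differed by more than sampling noise (chi-square per gene 6.12 to 19.8).

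Members with a call and a mean of at least 5 CPM and a fixed panel of 17 genes are given by library, the 4 genes with the smallest p in each list by group. The members and lists were chosen with earlier results of these data known. Alternatives were other scaling factors, filters, limma-trend, sample quality weights, a replicate block, log2 of the summed CPM of sensory receptor genes as a covariate, and libraries left out.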

Additional observations from a re-analysis of the deposited data

How the results depend on the processing

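Of the 21 called members, 11 kept their call and direction in all 16 alternatives: Itga4, Itgal, Itgb1, Itgb5, Cd81, Cd9, Tspan4, Tspan5, Tspan7, Tspan13 and Tspan17. No called member changed direction in any alternative that tested it. When the sensory receptor sum entered the model, 1434 of all genes tested rose and 1905 fell, against 2872 and 3092, and 1 integrin rose and 4 fell, against 3 and 7, and of the list genes 15 rose and 18 fell, against 23 and 29. When PBS 1 alone stood for the vehicle, 1197 of all genes tested rose and 1775 fell, and 1 integrin rose and 4 fell, and 12 list genes rose and 18 fell. These fits had 3 and 2 residual degrees of freedom. Leaving out 1 library at a time gave 1 to 3 integrins higher (1 without NP 1 or NP 3) and 4 to 6 lower (4 without NP 1 or NP 3), 4 to 5 tetraspanins higher and 4 to 6 lower. Of the list genes 17 to 22 rose and 20 to 24 fell. Deviations from the group mean had correlations of -0.07, -0.16 and -0.12 between PBS and NP samples with the same number. Samples with different numbers had -0.05 to 0.17. With so few libraries these values cannot show whether the numbers pair samples. With a replicate block 2 integrins rose and 5 fell, and 5 tetraspanins rose and 6 fell. The calls of Itgam, Itga8 and Itgb7 were lost in that fit (limma adjusted p = 0.0546, 0.0659 and 0.066). With library totals alone 2280 of all genes tested rose and 3653 fell, so that 38.4% of calls were higher against 48.2%, and 2 integrins rose and 8 fell, 5 tetraspanins rose and 6 fell, and 19 list genes rose and 35 fell. With the longest transcript as gene length, shares in PBS and NP were 48.6% and 48.9% for Itgax, 30.5% and 28.2% for Itgam, 60.8% and 65.8% for Cd9, 16.6% and 15.5% for Cd53 and 2.95% and 3.00% for Tspan14, and in PBS 11.3% for Itga5 and 9.54% for Itgb5. The cause of these shifts was not tested. The planned edgeR and DESeq2 fits were not run. Itga1, Itga8, Itgae and Tspan9, whose calls were lost in some alternatives, had 111 to 382 counts over 6 libraries; the part of depth was not tested.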
